A study of Mus musculus with 6 samples.

Results

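The cytochrome P450 genes were taken as every row of the expression table whose symbol starts with Cyp and a digit, except Cyp51, Cyp24a1 and Cyp27b1, which belong to sterol synthesis and vitamin D metabolism. Of 98 symbols of that form, 95 remained, among 22611 genes in the table. No expression filter was used for membership. RNA was sequenced from duodenal epithelium, released from the underlying tissue with EDTA, of 3 WT mice and 3 Esrra-/- mice (named ESRRAKO in the labels), with 1 library per mouse. The mice were littermates of both sexes kept on a high-fat diet for about 8 weeks, and the knockout is a germline allele, so that Esrra was lost in every tissue and not in the gut alone. Age and strain were not given in the sources used here. Esrra encodes the estrogen-related receptor α, an orphan nuclear receptor known for its control of mitochondrial energy genes, and the comparison asks which P450 transcripts differ in its absence.

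Cytochrome P450 enzymes are heme proteins that insert 1 oxygen atom into a substrate. Most sit in the endoplasmic reticulum and take electrons from P450 oxidoreductase (Por), whereas the mitochondrial members are fed by ferredoxin (Fdx1). In the small intestine, families 1, 2 and 3 are known for the first-pass metabolism of drugs and food-borne chemicals, and family 4 for the hydroxylation of fatty acids and eicosanoids, while other members make or break down bile acids, oxysterols, steroid hormones and retinoic acid. Several are classical targets of nuclear receptors or of the aryl hydrocarbon receptor (AHR).

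The shared signature of the family is the loop whose cysteine holds the heme iron. A pattern of 10 codons was searched in every coding transcript of every gene (mm9, GENCODE release M1). It has phenylalanine at the first, glycine at the fourth, arginine at the sixth, cysteine at the eighth and glycine at the tenth codon. A gene counted where any of its transcripts held the pattern. The pattern was found in 87 of 95 members (91.6%) and in 5 of 22499 other coding genes (0.022%), and in 26 of the 29 members expressed highly enough to be tested. The other coding genes were all those outside the 95 members, so P450 genes left out by the symbol rule were not removed from them. The 8 members without the pattern were Cyp20a1, Cyp2s1, Cyp39a1, Cyp3a59, Cyp7a1, Cyp7b1, Cyp8b1 and Cyp2d37-ps. The 30 bases of the loop are shown for the 9 most abundant members, for the sterol hydroxylase Cyp27a1 and for the AHR target Cyp1a1, with the cysteine codon in capitals. Each is from the longest coding transcript of the gene that held the pattern.
Cyp2d26, cysteine at codon 446: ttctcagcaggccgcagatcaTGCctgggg
Cyp4f14, codon 468: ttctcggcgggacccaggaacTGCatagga
Cyp4v3, codon 467: ttttctgctggacctcgaaacTGTattggt
Cyp3a13, codon 442: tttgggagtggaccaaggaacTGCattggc
Cyp4f16, codon 468: ttttctgccgggcccaggaacTGCatagga
Cyp3a25, codon 442: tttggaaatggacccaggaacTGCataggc
Cyp2c65, codon 435: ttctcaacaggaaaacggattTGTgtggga
Cyp2j6, codon 447: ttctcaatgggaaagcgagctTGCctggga
Cyp2b10, codon 436: ttctcaacaggaaagcgcattTGTcttggt
Cyp27a1, codon 479: ttcggctatggggttcggtctTGCctgggt
Cyp1a1, codon 461: tttggtttgggcaagcgaaagTGCatcgga

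Expression was given as FPKM, the fragments on a gene scaled to transcript length and library size, so levels can be compared between genes. Of the 95 members, 76 were above 0 in at least 1 library, 48 were above 0 in all 6 and 19 were listed at 0 in all 6. The mean over the 6 libraries was above 100 FPKM in 9 members, above 10 in 19 and above 1 in 29. A further 23 members had a mean between 0.1 and 1 FPKM, and 24 lay above 0 but under 0.1. Only the 29 members with a mean above 1 FPKM were tested between genotypes, together with all other genes above that level, 10596 in total. Because that filter uses the mean, Cyp1a1, Cyp2c40 and Cyp2c67 passed it mainly through 1 library each, described below.

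Esrra, the targeted gene, was 49.4, 73.5 and 104 FPKM in the WT libraries and 10.4, 9.42 and 8.72 FPKM in the Esrra-/- libraries, a log2 fold change of -2.92. The libraries also differed within each genotype. WT replicate 3 and Esrra-/- replicate 3 had summed FPKM of 0.0487 and 0.222 over 4 Y-linked genes, against 27.3 to 46.7 in the other 4 libraries. The same pair of libraries had the highest villus enterocyte marker sum of their genotype and the lowest crypt marker sum. Over 10 of 10 villus markers the sum was 29500 to 47000 FPKM in WT and 36700 to 50900 in Esrra-/- libraries, and over 7 of 7 crypt markers it was 162 to 284 and 69.1 to 206 FPKM. Of the 7 crypt markers, 2 (Smoc2 and Ccnb2) were lower in Esrra-/- with an unadjusted limma p below 0.05 and a log2 fold change below -0.58, as were 3.28% of all genes tested, both without overlap (9.14% of all genes), and the median log2 fold change of the list was -0.69, while 0 of 10 villus markers changed by that rule in either direction, 1 (Mttp) was higher in Esrra-/- without overlap (8.45% of all genes) and their median was 0.19. Marker sums of other sources lay below those of the crypt markers: 0.664 to 1.72 FPKM over 7 hepatocyte genes (2 at 0 in all libraries), 2.44 to 3.62 over 10 pancreatic acinar genes (6 at 0, the rest carried mainly by Cela1), 0.188 to 2.0 over 6 mesenchymal genes and 28.2 to 54.9 over 7 immune genes. Of 6 tested immune markers, 1 (Itgam) was higher in Esrra-/- without overlap (8.45% of all genes). Its log2 fold change was 0.42 and its unadjusted limma p was 0.0487, where 4.3% of all genes were higher at p under 0.05. The mesenchymal marker Acta2, untested at a mean of 0.285 FPKM, was also higher in Esrra-/- without overlap. Of 5 duodenum markers, Gata4 was 71.2 to 97.9 FPKM in every library, and Slc11a2 and Onecut2 had means of 15.3 and 6.07 FPKM. Pdx1 and Cybrd1 had means of only 0.666 and 0.558 FPKM. In bulk tissue, fewer cells of a type cannot be told apart from less RNA per cell.

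Expression of the family was concentrated in a few enzymes. Cyp2d26 alone held 18.5% of the summed FPKM of the 95 members, the top 5 members (Cyp2d26, Cyp4f14, Cyp4v3, Cyp3a13 and Cyp4f16) 66.6%, the top 12 members 90.8% and the 29 tested members 99.7%. By subfamily, 4f held 28.3%, family 3 held 19.7%, 2d held 19.3%, 4v held 12.3%, 2c held 7.24%, 2j held 4.29% and 2b held 3.73%. The bile acid and oxysterol enzymes held 0.765%, the steroid hormone enzymes 0.0228% and the retinoic acid hydroxylases 0.00172%.

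**Figure D1:**
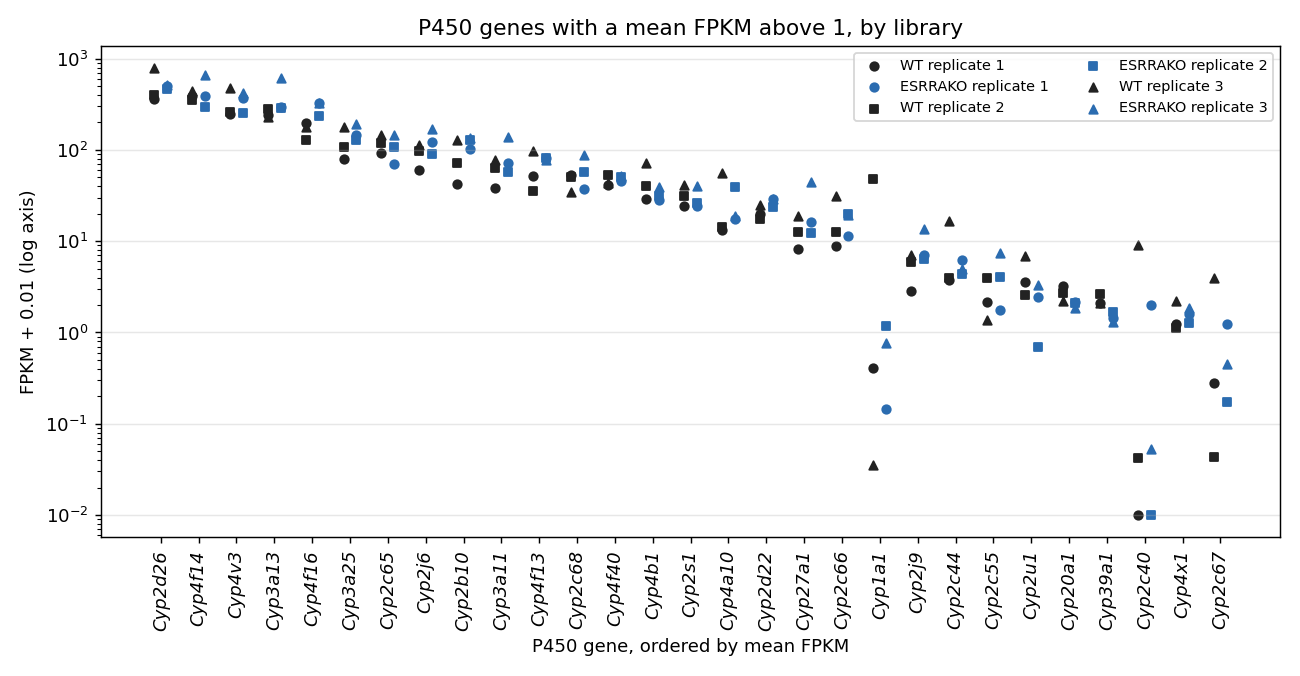
FPKM plus 0.01 on a log axis for each of the 29 P450 genes with a mean above 1 FPKM, ordered by that mean, with 1 point per library (black WT, blue Esrra-/-, labelled ESRRAKO, and a marker shape for each replicate number). The triangles, replicate 3 of each genotype, lie at the top for 24 of the 29 genes, and the points of Cyp1a1, Cyp2c40 and Cyp2c67 spread over far more than those of the other genes.

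At the level of the whole family, summed P450 expression was 2021, 2221 and 3242 FPKM in WT and 2713, 2416 and 3765 FPKM in Esrra-/- libraries. These groups overlapped. Expressed as a share of all FPKM in the library, P450 transcripts made up 0.273%, 0.271% and 0.324% in WT and 0.364%, 0.342% and 0.418% in Esrra-/-. By this measure every Esrra-/- library lay above every WT library, also without the libraries numbered 3, and no test was run on the sum. The villus marker sums were 29500, 29500 and 47000 FPKM in WT and 46200, 36700 and 50900 FPKM in Esrra-/- libraries. Taken as a share of all FPKM in the library, the villus markers too were higher in every Esrra-/- library than in every WT library. The crypt marker share overlapped between genotypes. The total FPKM itself ranged from 707094 to 999902 between libraries, and the villus marker sum was lowest in WT replicates 1 and 2, where the P450 share was lowest as well. The crypt marker sum was highest in WT replicate 2 and lowest in Esrra-/- replicate 3, the libraries with the lowest and the highest P450 share, and 2 of 7 crypt markers were called lower in Esrra-/-. Between these extremes the order differed. WT replicate 3 had a lower crypt marker sum than Esrra-/- replicate 2 (162 and 206 FPKM) and also a lower P450 share (0.324% and 0.342%). The part of the villus and crypt cells in the P450 share was not tested.

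**Figure D2:**
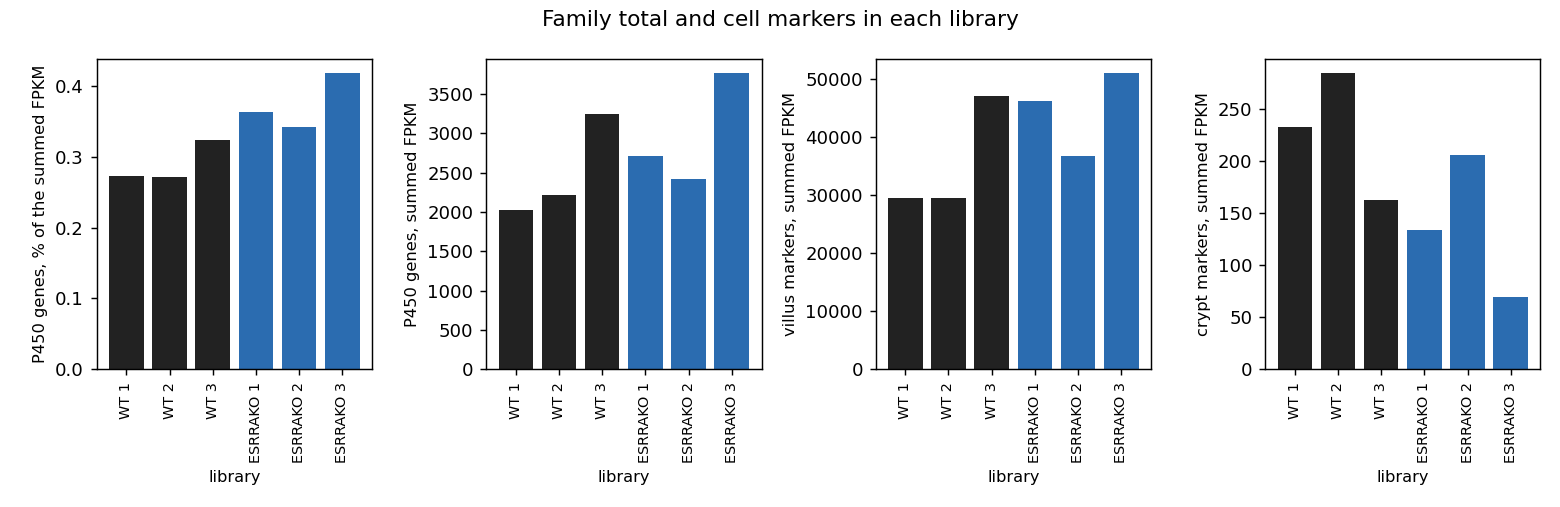
Bars for the 6 libraries (black WT, blue Esrra-/-, labelled ESRRAKO) of the P450 share of all FPKM in percent, the summed P450 FPKM, the summed FPKM of 10 villus enterocyte markers and the summed FPKM of 7 crypt markers. The P450 share does not overlap between genotypes, whereas the P450 sum does (2021 to 3242 in WT, 2416 to 3765 in Esrra-/-). The marker bars are sums, and as a share of all FPKM the villus markers do not overlap between genotypes either.

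Between genotypes, few individual P450 genes differed. The test was limma on log2(FPKM + 0.1), and a gene counted as called where its unadjusted p was under 0.05 and its log2 fold change was above 0.58 or below -0.58. By this rule 1 of the 29 tested members (Cyp4f16) was higher in Esrra-/-, where 1.35% of all genes tested were higher, and 1 (Cyp39a1) was lower, where 3.28% of all genes were lower. No member had an adjusted p under 0.05, a level reached by 4 genes in all (0.0378%), while 3 members had an unadjusted p under 0.05 in limma (Cyp4f16, Cyp39a1 and Cyp2d22). The background at that p alone was 4.3% higher, with 2 members, and 6.49% lower, with 1 member. A log2 fold change above 0 was found in 19 of 29 members, against 54.3% of all genes, and below 0 in 10, against 45.7%. The median log2 fold change of the members was 0.10, beside 0.03 over all genes, and the median standard error was 0.32, beside 0.185 over all genes. All 3 Esrra-/- values lay above all 3 WT values for Cyp3a13 and Cyp4f16 (8.45% of all genes did so), and below them for Cyp20a1 and Cyp39a1 (9.14% of all genes). WT replicate 3 bore on the counts: without it, 5 members were called higher (Cyp2b10, Cyp2j9, Cyp3a25, Cyp4f13 and Cyp4f16), where 2.02% of all genes were, and the median of the members was 0.39, whereas without WT replicate 1 the median was -0.03. The lower count became 0 without WT replicate 2 or Esrra-/- replicate 1 (2.65% and 2.38% of all genes), and 2 (Cyp39a1 and Cyp4b1) without WT replicate 1 (3.56% of all genes). Without Esrra-/- replicate 1, 2 members were called higher (Cyp2c55 and Cyp4f16, where 1.35% of all genes were), and without Esrra-/- replicate 3 the 1 member called lower was Cyp2u1 in place of Cyp39a1 (3.16% of all genes).

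**Figure D3:**
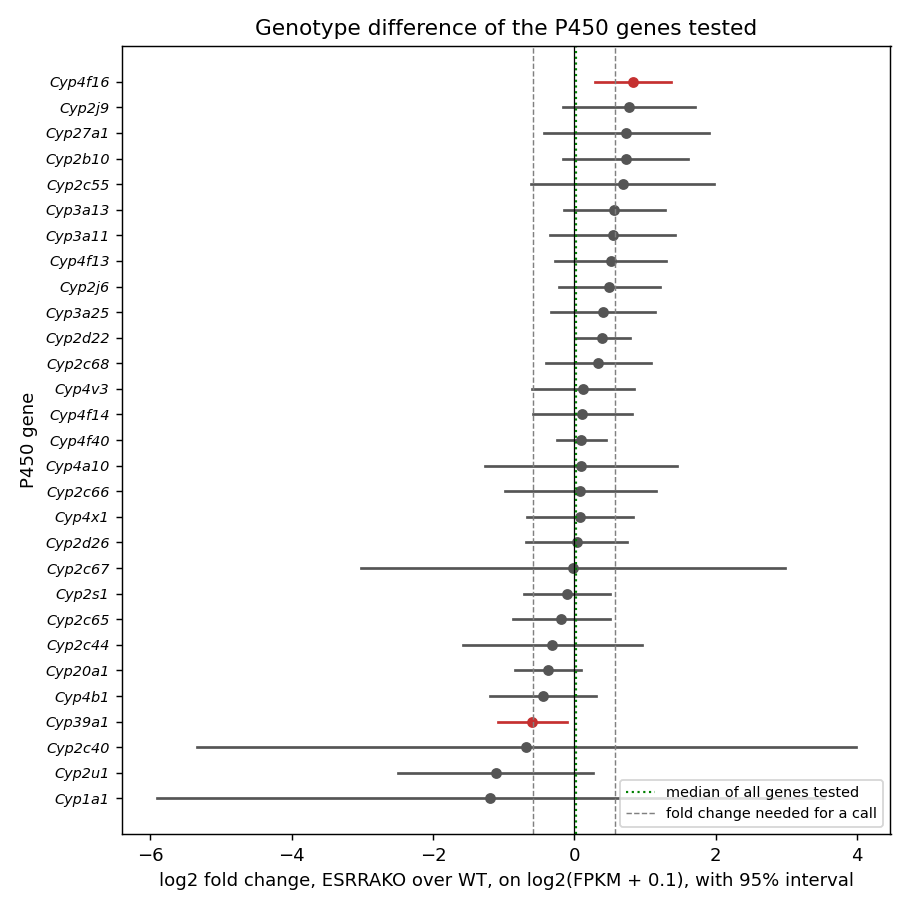
Log2 fold change of Esrra-/- (labelled ESRRAKO) over WT on the log2(FPKM + 0.1) scale for the 29 P450 genes tested, as points with 95% intervals from limma, red where called. Only the intervals of Cyp4f16, Cyp39a1 and Cyp2d22 lie off 0, and those of Cyp1a1, Cyp2c40 and Cyp2c67 are the widest.

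Family 4 holds the fatty acid and eicosanoid hydroxylases, and Cyp4f16 in this family was the one member called in all 16 alternative fits at the same thresholds. Its level was 196, 128 and 179 FPKM in WT and 327, 234 and 330 FPKM in Esrra-/- libraries. The lowest Esrra-/- library was above the highest WT library. The means were 167.8 ± 35.8 FPKM and 296.9 ± 54.9 FPKM (SD, n = 3 each), and the limma log2 fold change was 0.83 (SE 0.23, 95% interval 0.29 to 1.36, unadjusted p = 0.00783, adjusted p = 0.326). It was between 0.64 and 0.99 over those fits, with limma adjusted p-values between 0.0709 and 0.762. The two-sided exact permutation test gave p = 0.1, the smallest that 3 against 3 allows. Cyp4f16 shared 32.5% of its 31-base words with Gm9705, which was at most 0.0506 FPKM in any library.

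The gene lies on chromosome 17 (mm9, chr17:32673503-32688743, plus strand) among 7 Cyp4f genes, of which 4 were tested. The sequence upstream of Cyp4f16 is shown because Cyp4f16 was the member called higher, and it was taken from RefSeq (the GRCm38.p6 promoter table) and located by exact match in mm9 at chr17:32673252-32673501, plus strand. The capitals mark the match to GCGTG, the core of AHR binding elements, read on the opposite strand.
Cyp4f16: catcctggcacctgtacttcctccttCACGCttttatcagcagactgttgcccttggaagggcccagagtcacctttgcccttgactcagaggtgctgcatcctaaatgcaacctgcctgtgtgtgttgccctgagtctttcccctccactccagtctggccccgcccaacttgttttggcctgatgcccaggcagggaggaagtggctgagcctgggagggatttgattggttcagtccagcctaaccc

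The other Cyp4f genes in this cluster did not pass the test. Cyp4f14, a leukotriene hydroxylase and the second most abundant P450 of this epithelium, was 386, 350 and 444 FPKM in WT and 386, 297 and 657 FPKM in Esrra-/- libraries. Its log2 fold change was 0.11 (SE 0.30), and Esrra-/- replicate 2 lay below every WT library while Esrra-/- replicate 3 lay above them. Cyp4f13 was 52.0, 35.2 and 96.9 FPKM in WT and 81.4, 81.7 and 77.5 FPKM in Esrra-/- libraries, a log2 fold change of 0.51 (SE 0.33). WT replicate 3 exceeded all Esrra-/- values, and without it Cyp4f13 was called, at a log2 fold change of 0.91, whereas without WT replicate 2 it was 0.18. Cyp4f40 varied least of all tested members relative to its level, from 40.9 to 53.7 FPKM over the 6 libraries, with a log2 fold change of 0.10 (SE 0.15). The untested members of the cluster, Cyp4f39, Cyp4f17 and Cyp4f15, had means of 0.264, 0.498 and 0.462 FPKM.

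Cyp4v3, an omega-hydroxylase of fatty acids, was 250, 257 and 473 FPKM in WT and 366, 254 and 421 FPKM in Esrra-/- libraries, and its fold change was 0.12 (log2, SE 0.31). Cyp4a10, a classical target of PPARA, the nuclear receptor for fatty acids, was 13.3, 14.2 and 56.5 FPKM in WT and 17.7, 39.2 and 18.7 FPKM in Esrra-/- libraries. WT replicate 3 was 3.2 times the median of the other libraries, and the groups overlapped fully (log2 fold change 0.09, SE 0.58). Cyp4b1 was 28.9, 40.6 and 72.6 FPKM in WT and 28.4, 30.98 and 38.8 FPKM in Esrra-/- libraries (log2 fold change -0.44, SE 0.32). WT replicate 3 again held the highest value, and without it the difference was -0.08. Without WT replicate 1 the difference was -0.74, and Cyp4b1 was called. Cyp4x1 lay between 1.10 and 2.22 FPKM with no difference past the test.

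Family 3, whose members have wide substrate ranges and metabolise many drugs, was represented by Cyp3a13, Cyp3a25 and Cyp3a11. Cyp3a13 was 243, 284 and 232 FPKM in WT and 297, 286 and 611 FPKM in Esrra-/- libraries. The groups did not overlap, but the lowest Esrra-/- library exceeded the highest WT library by little, and Esrra-/- replicate 3 was 2.15 times the median of the other libraries. The log2 fold change was 0.56 (SE 0.31, limma unadjusted p = 0.105), and 0.21 without Esrra-/- replicate 3. Cyp3a11, a classical target of the xenobiotic receptor PXR, was 37.9, 63.2 and 77.6 FPKM in WT and 71.3, 57.96 and 139 FPKM in Esrra-/- libraries (log2 fold change 0.54, SE 0.38, or 0.17 without Esrra-/- replicate 3 and 0.25 without WT replicate 1). Cyp3a25 was 78.6, 107 and 179 FPKM in WT and 145, 127 and 190 FPKM in Esrra-/- libraries (log2 fold change 0.40, SE 0.31), between 0.13 without WT replicate 1 and 0.73 without WT replicate 3, where it was called. Neither passed the test with all libraries.

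Near-identical genes of family 3 were expressed at very different levels. Cyp3a25 and Cyp3a59, which lie in the same cluster of 8 Cyp3a genes on chromosome 5, differ at 38 of 1512 coding bases (97.5% identity), yet their mean levels were 138 and 0.249 FPKM. Their upstream regions hold AAGGTCA, the short form of the estrogen-related receptor element, on both strands, with 15 bases between the matches. The same arrangement is found upstream of Cyp3a57, which was listed at 0 FPKM in all 6 libraries. The 3 stretches, with both matches in capitals, are given 5′ to 3′ on the strand of the gene (RefSeq sequence, located in mm9).
Cyp3a25, chr5:146821323-146821391, minus strand: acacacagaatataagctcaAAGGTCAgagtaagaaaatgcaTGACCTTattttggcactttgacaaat
Cyp3a59, chr5:146890636-146890704, plus strand: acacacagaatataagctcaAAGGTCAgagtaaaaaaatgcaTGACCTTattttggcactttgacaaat
Cyp3a57, chr5:146105943-146106011, plus strand: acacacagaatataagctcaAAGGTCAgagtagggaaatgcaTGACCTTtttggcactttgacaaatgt

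Motifs were searched on both strands of RefSeq windows from 250 bases before to 50 bases after the start of transcription, which matched 72 of the 95 members and 23 of the 29 tested. AAGGTCA was present for 6 members (Cyp2c29, Cyp2c39, Cyp2f2, Cyp3a25, Cyp3a57 and Cyp3a59), of which Cyp3a25 was the only tested one. By window, it was in 7 of the 82 windows of the members, beside 4.72% of all 32851 windows of that length. The longer form TCAAGGTCA, which contains AAGGTCA, was in the window of 0 members and in 0.42% of all windows. The repeat of AGGTCA with 1 base between the copies, which contains AAGGTCA when that base is A and is of the kind bound by PPARA and HNF4A, was in 0 members and in 0.04% of all windows. GCGTG was found for 16 members, 8 of them tested. By window, it was in 17 of the 82 windows of the members, beside 32.39% of all windows. A match describes the letters in the window and not a bound site.

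In family 2, the most abundant P450 transcript of the epithelium, Cyp2d26, was 359, 397 and 785 FPKM in WT and 500, 464 and 519 FPKM in Esrra-/- libraries. The Esrra-/- libraries were close together and lay inside the WT range, with a log2 fold change of 0.04 (SE 0.30). Cyp2d22, the other tested 2d gene, was 19.9, 17.4 and 24.7 FPKM in WT and 29.2, 23.4 and 28.6 FPKM in Esrra-/- libraries. Its log2 fold change of 0.40 (SE 0.17, limma unadjusted p = 0.0482, adjusted p = 0.458) was under the fold required for a call, and 1 Esrra-/- library lay below WT replicate 3.

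Cyp2b10, the classical target of the xenobiotic receptor CAR, was 41.9, 72.5 and 129 FPKM in WT and 102, 130 and 135 FPKM in Esrra-/- libraries. WT replicate 3 lay inside the Esrra-/- range, and the other WT libraries lay below it. The log2 fold change was 0.73 (SE 0.38) and lay between 0.33 without WT replicate 1 and 1.14 without WT replicate 3, where it was called. Cyp2j6 was 60.6, 98.4 and 112 FPKM in WT and 123, 89.6 and 170 FPKM in Esrra-/- libraries (log2 fold change 0.49, SE 0.31, or 0.23 without WT replicate 1). Cyp2j9, its neighbour on chromosome 4, was 2.83, 5.92 and 7.14 FPKM in WT and 7.06, 6.399 and 13.5 FPKM in Esrra-/- libraries (log2 fold change 0.77, SE 0.40), between 0.38 without WT replicate 1 and 1.03 without WT replicate 3, where it was called. Both genes overlapped between genotypes. Cyp2s1, which was 24.3, 30.9 and 41.8 FPKM in WT and 24.1, 26.1 and 40.2 FPKM in Esrra-/- libraries, had near-equal ranges in the 2 genotypes.

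Cyp2u1, a fatty acid hydroxylase, was 3.59, 2.55 and 6.91 FPKM in WT and 2.46, 0.678 and 3.30 FPKM in Esrra-/- libraries. Its log2 fold change was -1.11 (SE 0.59, limma unadjusted p = 0.0982), between -1.54 without Esrra-/- replicate 3 and -0.47 without Esrra-/- replicate 2. It was called without Esrra-/- replicate 3. The low value of Esrra-/- replicate 2 thus set much of its size.

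The Cyp2c subfamily, which oxidises arachidonic acid and many drugs, had 15 members, of which 7 were tested and 5 were listed at 0 throughout. Its main member, Cyp2c65, was 92.8, 118 and 146 FPKM in WT and 69.6, 109 and 144 FPKM in Esrra-/- libraries (log2 fold change -0.18, SE 0.29). Cyp2c68 was 52.5, 50.9 and 34.4 FPKM in WT and 37.7, 57.0 and 87.0 FPKM in Esrra-/- libraries (log2 fold change 0.34, SE 0.32, or 0.04 without Esrra-/- replicate 3 and 0.64 without Esrra-/- replicate 1). Both overlapped between genotypes. Cyp2c66 ranged from 8.90 to 31.6 FPKM, Cyp2c44 from 3.70 to 16.8 FPKM and Cyp2c55 from 1.37 to 7.32 FPKM, with WT replicate 3 highest for Cyp2c66 and Cyp2c44.

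Cyp2c40 and Cyp2c67 were present in some libraries and near 0 in others. Cyp2c40 was 0, 0.0323 and 9.14 FPKM in WT and 1.98, 0 and 0.0429 FPKM in Esrra-/- libraries. Cyp2c67 was 0.266, 0.0338 and 3.95 FPKM in WT and 1.23, 0.162 and 0.443 FPKM in Esrra-/- libraries. The same libraries, WT replicate 3 and Esrra-/- replicate 1, were the highest for both, and their log2 fold changes had standard errors of 1.99 and 1.28. These genes and Cyp2c68 share sequence with one another: only 22.3% of the 31-base words of Cyp2c40, 31.4% of Cyp2c67 and 37.6% of Cyp2c68 occur in no other gene, so the split of reads among them is uncertain. For Cyp2c68, WT replicate 3 and Esrra-/- replicate 1 were the lowest libraries, at 34.4 and 37.7 FPKM against 50.9 to 87.0 FPKM in the others. Over the whole coding sequence, Cyp2c68 was 97.2% identical to Cyp2c67 and 96.5% identical to Cyp2c69. A stretch of 90 coding bases is shown, with bases that differ from Cyp2c68 in capitals. It was chosen as the stretch with the most positions where Cyp2c67 or Cyp2c69 differs from Cyp2c68, so it is less alike than the rest. Cyp2c69, listed at 0 in every library, is included as a further copy.
Cyp2c68, coding bases 215 to 304: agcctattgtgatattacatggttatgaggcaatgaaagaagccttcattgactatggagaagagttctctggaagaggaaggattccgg
Cyp2c40, coding bases 302 to 391: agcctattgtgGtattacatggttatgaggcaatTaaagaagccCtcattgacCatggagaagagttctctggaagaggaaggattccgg
Cyp2c67, coding bases 215 to 304: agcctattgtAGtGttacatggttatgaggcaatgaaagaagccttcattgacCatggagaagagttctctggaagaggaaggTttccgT
Cyp2c69, coding bases 215 to 304: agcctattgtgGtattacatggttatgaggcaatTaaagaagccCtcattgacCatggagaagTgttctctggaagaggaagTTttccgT

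Sharing of this kind affected other members as well. In all, 12 of 95 members had fewer than 50% of their 31-base words unique to the gene, 3 of them among the tested (Cyp2c68, Cyp2c40 and Cyp2c67), and 17 of the 29 tested members had more than 90% unique. Cyp2c65 shared 33.5% of its words with Cyp2c66, Cyp3a25 shared 41.3% with Cyp3a59 and Cyp4a10 shared 36.0% with Cyp4a32.

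Most P450 genes stand in clusters, and expression within a cluster was unequal. With members grouped when the gap was at most 500000 bases, 10 clusters of at least 2 genes held 74 of the 95 members in mm9. The Cyp2c cluster on chromosome 19 (chr19:39081509-40261823) held 14 genes, of which 6 were tested and 5 were listed at 0, and its means ranged from 0 to 113 FPKM. The cluster on chromosome 7 with 2a, 2b and related genes (chr7:26587494-27943687) held 13 genes, of which 2 (Cyp2b10 and Cyp2s1) were tested and 6 were listed at 0. Among the 9 Cyp2d genes on chromosome 15 (chr15:82200958-82624675), Cyp2d22 at one end and Cyp2d26 at the other were the only tested ones. The Cyp2j cluster (chr4:95694225-96330845) had 2 tested genes of 8, the Cyp4a, Cyp4b and Cyp4x cluster (chr4:114778928-115320322) had 3 of 8, the Cyp3a cluster (chr5:146106148-146924861) had 2 of 8 and the Cyp4f cluster (chr17:32605404-33084347) had 4 of 7, with no Cyp4f gene at 0. In each of these 7 clusters, members above 1 FPKM stood beside members below it.

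**Figure D4:**
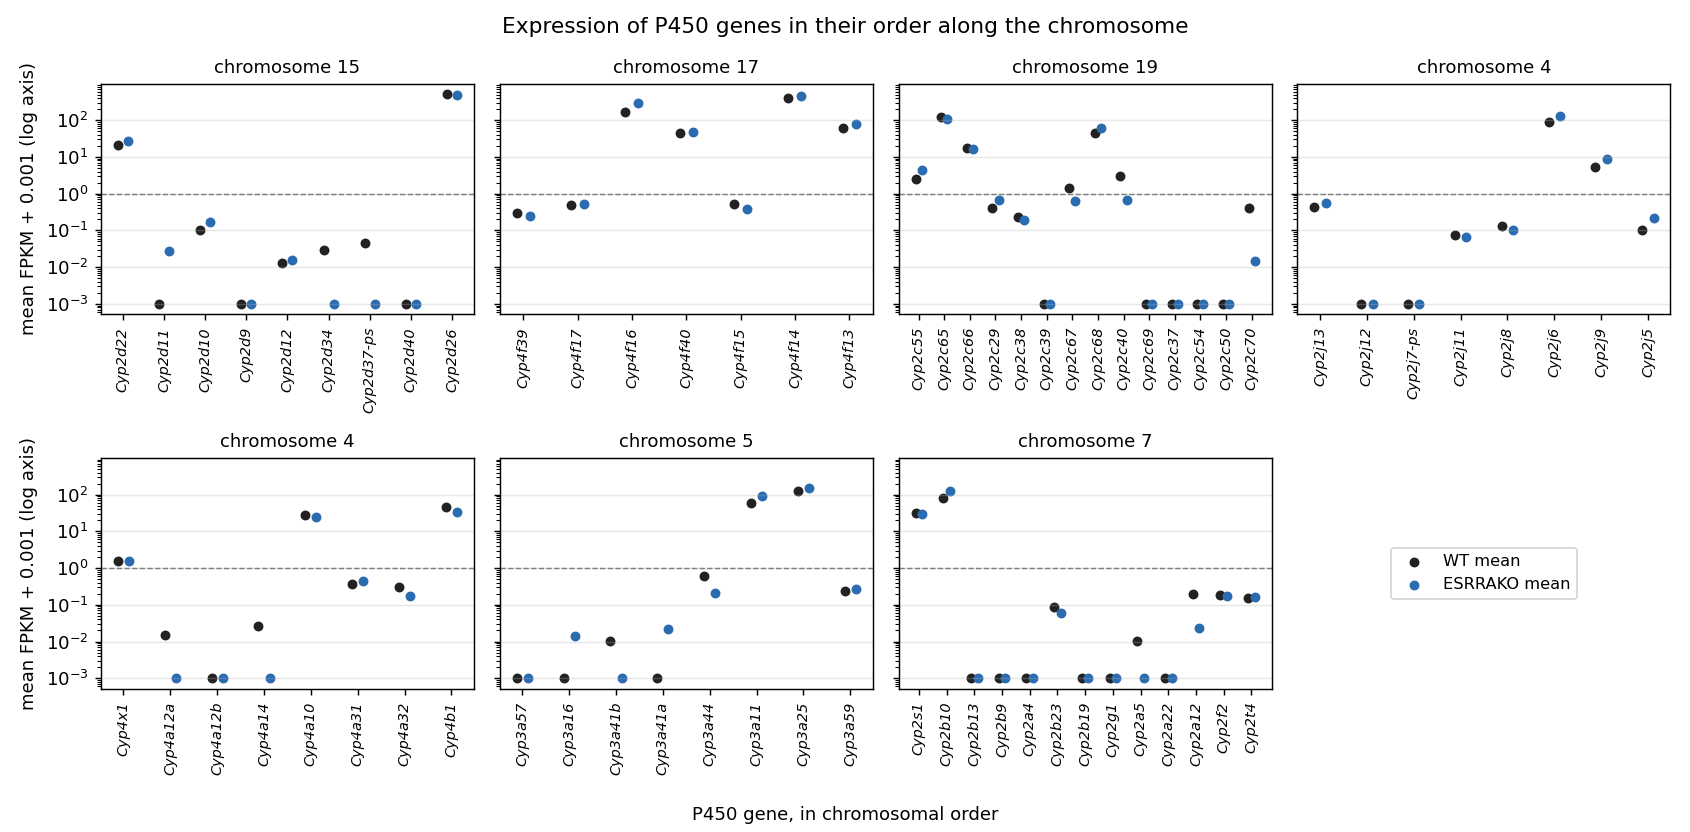
Mean FPKM plus 0.001 on a log axis for WT (black) and Esrra-/- (blue, labelled ESRRAKO) of the P450 genes in the 7 clusters with at least 7 members, in their order along each chromosome, with 3 libraries per mean and the dashed line at 1 FPKM. Genes above and below the line stand side by side within each cluster, with Cyp2d26 (mean 504 FPKM) the highest.

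The bile acid and oxysterol enzymes held the member called lower. Cyp39a1, an oxysterol hydroxylase of an alternative route to bile acids, was 2.08, 2.60 and 2.12 FPKM in WT and 1.45, 1.67 and 1.30 FPKM in Esrra-/- libraries. Every Esrra-/- value lay below every WT value. The means were 2.27 ± 0.289 and 1.47 ± 0.186 FPKM (SD, n = 3 each), and the limma log2 fold change was -0.59 (SE 0.21, 95% interval -1.08 to -0.11, unadjusted p = 0.0234, adjusted p = 0.393). It passed the call in 10 of 16 alternative fits, with limma adjusted p-values between 0.152 and 0.775, and the two-sided exact permutation test gave p = 0.1. The gene (chr17:43804374-43888380, mm9, plus strand) stands apart from the Cyp4f cluster of its chromosome, and all of its 31-base words were unique.

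Cyp27a1, the mitochondrial sterol hydroxylase, was 8.18, 12.5 and 18.9 FPKM in WT and 16.4, 12.3 and 44.7 FPKM in Esrra-/- libraries. The groups overlapped, and Esrra-/- replicate 3 was 3.59 times the median of the other libraries. Its log2 fold change was 0.74 (SE 0.50), or 0.19 without that library. The other 4 enzymes of the group were under 1 FPKM. Cyp7a1, the rate-limiting enzyme of bile acid synthesis in liver, Cyp7b1 and the brain cholesterol hydroxylase Cyp46a1 had means of 0.0112, 0.00433 and 0.0142 FPKM. Cyp8b1, which sets the share of cholic acid, was 0.0292, 0 and 0 FPKM in WT and 0.739, 0.171 and 0.0705 FPKM in Esrra-/- libraries, so that no Esrra-/- library was as low as any WT library at this trace level.

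Cyp1a1, the classical AHR target that clears polycyclic aromatic compounds, was high in 1 mouse. It was 0.401, 47.6 and 0.0254 FPKM in WT and 0.134, 1.15 and 0.766 FPKM in Esrra-/- libraries. WT replicate 2 was 119 times the median of the other libraries, and the log2 fold change of -1.19 had a standard error of 2.01. In the same library Ahrr, the AHR repressor and another AHR target, was 0.365 FPKM, against at most 0.0878 FPKM in the others, and the ileal bile acid binding gene Fabp6 was 4.69 FPKM, against at most 0.647 FPKM in the others. The AHR target Nqo1 was lowest in that library, at 25.6 FPKM against 26.9 to 36.96 FPKM in the others, and Tiparp was 7.95 FPKM against 6.81 to 7.77 FPKM. Cyp1a2 and Cyp1b1 had means of 0.0101 and 0.00791 FPKM. The sequence upstream of Cyp1a1 (chr9:57545170-57545419, mm9, plus strand, from RefSeq) is shown with its GCGTG match in capitals.
Cyp1a1: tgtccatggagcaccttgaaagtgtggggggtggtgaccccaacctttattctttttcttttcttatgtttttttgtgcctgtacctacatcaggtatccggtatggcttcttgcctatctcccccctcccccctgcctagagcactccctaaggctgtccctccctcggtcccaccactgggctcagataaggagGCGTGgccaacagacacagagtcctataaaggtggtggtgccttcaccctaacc

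Several P450 genes had 1 library far above the rest. In 7 of the 29 tested members (24.1%) the highest library exceeded 3 times the median of the others, against 2.04% of all genes tested. Besides Cyp1a1, Cyp2c40, Cyp2c67, Cyp4a10 and Cyp27a1 these were Cyp2c44, at 3.88 times in WT replicate 3, and Cyp2c55, at 3.39 times in Esrra-/- replicate 3. Because Cyp1a1, Cyp2c40 and Cyp2c67 passed the filter through that library, the count was also taken over genes whose other 5 libraries had a mean above 1 FPKM, a choice made after seeing the data: it was then 4 of 26 members (15.4%), against 1.46% of all 10397 genes so selected. WT replicate 3 held the highest value for 13 members (44.8%, against 19.7% of all genes) and Esrra-/- replicate 3 for 11 (37.9%, against 26.5%), so that 24 of 29 (82.8%) peaked in a library without Y-linked transcripts, against 46.2% of all genes. Over the 26 members whose other libraries also passed, 22 (84.6%) did so, against 46.6% of all genes. WT replicate 1 held the lowest value for 13 members (44.8%, against 14% of all genes). The libraries without Y-linked transcripts also had the highest villus marker sum and the largest total FPKM (999902 and 901171) of their genotype. As a share of all FPKM, the villus markers were higher in Esrra-/- replicate 1 than in Esrra-/- replicate 3. With 1 such mouse per genotype, the sex of the mice cannot be told apart from the villus marker sum.

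Within the libraries that had Y-linked transcripts, 2 of each genotype, 3 members were called higher (Cyp2b10, Cyp4f13 and Cyp4f16, at log2 fold changes of 1.06, 0.93 and 0.80) and 0 were called lower, beside 1.99% and 3.24% of all 10665 genes tested there. With the presence of Y-linked transcripts as a covariate over all 6 libraries, 4 members were called higher (Cyp27a1, Cyp2b10, Cyp2j9 and Cyp4f16) and 2 lower (Cyp2u1 and Cyp39a1), beside 1.63% and 3.9% of all genes. The limma unadjusted p-values in that fit were 0.0216 for Cyp27a1, 0.046 for Cyp2b10, 0.0276 for Cyp2j9 and 0.0442 for Cyp2u1, none of which was called in the fit of all 6 libraries with no covariate or block. Cyp4f16 was common to these lists and to the main one.

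Members at trace level included several that are known from liver. With no filter other than a value above 0 in 1 library, 17679 genes were tested, among them 76 members, of which 5 were called lower (2.99% of all genes) and 2 higher (1.57%). The lower genes were Cyp39a1, Cyp2a12, Cyp2c70, Cyp2e1 and Cyp3a44, and the higher genes were Cyp4f16 and Cyp8b1. Cyp2c70, which makes muricholic acids in the mouse, was 0.262, 0.170 and 0.807 FPKM in WT and 0, 0 and 0.0407 FPKM in Esrra-/- libraries. Cyp2e1, the ethanol-inducible enzyme, was 0.690, 0.795 and 1.88 FPKM in WT and 0.232, 0.490 and 0.455 FPKM in Esrra-/- libraries. Cyp3a44 was 0.782, 0.588 and 0.417 FPKM in WT and 0.0612, 0.283 and 0.280 FPKM in Esrra-/- libraries. Cyp2a12 was 0.0700, 0.249 and 0.252 FPKM in WT and 0, 0.0683 and 0 FPKM in Esrra-/- libraries. The Esrra-/- libraries were the lower ones throughout for these 4 genes. The hepatocyte marker sum was 1.14, 0.909 and 1.72 FPKM in WT and 0.682, 0.664 and 1.22 FPKM in Esrra-/- libraries, with overlap. Its relation to these 4 genes was not tested. Without the filter, 6 of 76 members had all Esrra-/- values under all WT values (7.23% of all genes) and 3 had them all above (6.47% of all genes). The limma adjusted p-values of Cyp2c70, Cyp2e1, Cyp3a44 and Cyp2a12 in that test lay between 0.36 and 0.546, and as the number of fragments behind an FPKM value is not known, counting error at these levels could not be given.

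The steroid hormone and retinoic acid enzymes were all under 1 FPKM on average. Cyp17a1, the most abundant of 6 steroid enzymes, had a mean of 0.543 FPKM with 1.71 FPKM in WT replicate 3, and 2 of the 6 were listed at 0 in all libraries. Cyp26a1, the most abundant of 3 retinoic acid hydroxylases, had a mean of 0.0230 FPKM. The remaining subfamilies were represented by Cyp20a1, an orphan enzyme at 3.21, 2.69 and 2.18 FPKM in WT and 2.17, 2.09 and 1.83 FPKM in Esrra-/- libraries (log2 fold change -0.38, SE 0.20), and by Cyp2r1, a vitamin D hydroxylase, at a mean of 0.683 FPKM. The leading genes of the subfamilies 2f, 2t, 2w and 2ab, namely Cyp2f2, Cyp2t4, Cyp2w1 and Cyp2ab1, had means of 0.175, 0.154, 0.137 and 0.00343 FPKM, and Cyp2g1 was listed at 0.

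The partners of the P450 enzymes were examined as lists. Among electron donors, 8 of 9 were in the table and all 8 were tested, with 1 lower and 0 higher at an unadjusted p under 0.05 in limma, where 6.49% of all genes were lower and 4.3% higher. The lower gene, Fdx1, which feeds the mitochondrial P450 enzymes, was 23.8, 30.4 and 39.8 FPKM in WT and 17.5, 18.2 and 26.6 FPKM in Esrra-/- libraries. Esrra-/- replicate 3 lay inside the WT range, and the limma log2 fold change was -0.59 (SE 0.24, unadjusted p = 0.0407, adjusted p = 0.44). It was called in 10 of 16 alternative fits, with limma adjusted p-values between 0.0874 and 0.811. The reductase Por, which serves the microsomal enzymes, was 184, 140 and 292 FPKM in WT and 247, 214 and 273 FPKM in Esrra-/- libraries, a log2 fold change of 0.31 (SE 0.28). The most abundant electron donor was Cyb5r3, at a mean of 430 FPKM.

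Among 17 regulators of P450 genes, 16 were tested, and 2 had an unadjusted p under 0.05, both higher, where 4.3% of all genes were, and both under the fold required for a call. Nr1h3, the oxysterol receptor LXRα, was 42.6, 35.7 and 53.2 FPKM in WT and 63.6, 57.99 and 73.0 FPKM in Esrra-/- libraries. The groups did not overlap (log2 fold change 0.576, SE 0.18, limma unadjusted p = 0.0143, adjusted p = 0.356), and the gene was called in 4 of 16 alternative fits, where its log2 fold change was 0.588 to 0.725. Over all 16 the limma adjusted p-values lay between 0.0849 and 0.762. Arnt, the partner of AHR, was 14.3, 10.5 and 9.84 FPKM in WT and 18.8, 13.9 and 15.4 FPKM in Esrra-/- libraries, with overlap (log2 fold change 0.48, SE 0.18, limma unadjusted p = 0.0338, adjusted p = 0.422). It was called in 1 of 16 alternative fits, without WT replicate 1, at a log2 fold change of 0.64, and over all 16 the limma adjusted p-values lay between 0.111 and 0.811. Hnf4a, a driver of enterocyte and liver genes and the most abundant regulator, had a mean of 179.9 FPKM. Of 2 tested epoxide hydrolases, 3 AHR targets, 14 PPARA targets and 7 PXR targets, all outside the P450 family, none had an unadjusted p under 0.05 in limma, and the medians of their log2 fold changes were 0.38, -0.06, 0.25 and 0.40, beside 0.03 over all genes. Their most abundant members were Ephx2, Nqo1, Fabp1 and Gsta1, at means of 368, 29.9, 12540 and 449 FPKM. Cyp51, the sterol demethylase set aside by the rule, was the only tested one of the P450 genes outside it, at a mean of 20.98 FPKM and a log2 fold change of -0.0037.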

How the data were processed

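The authors checked reads with FastQC 0.11.3, quantified them with kallisto against mm9 and computed FPKM with DESeq2 (tools as named in the submitters' processing notes). The annotation they used is not given in the sources used here. The deposited FPKM values were used as they stand for 22611 genes in 6 libraries. A deposited table with the authors' fold changes and p-values was not used. FPKM values carry no read counts, so depth per library is unknown and no counting interval is given. The library kit does not mark strand.

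Fits used limma 3.58.1 (R 4.3.3) on log2(FPKM + 0.1) for the 10596 genes with a mean above 1 FPKM, with a mean-variance trend, no covariate and Benjamini-Hochberg adjustment over all genes tested. This scale understates changes of low genes. Replicates were separate mice. Steps were tested on simulated data. Genes named were the 12 most abundant members, members with an unadjusted p under 0.05, the 3 most negative and 3 most positive fold changes, the most abundant member of each role group, and, of the partner lists, genes with an unadjusted p under 0.05 and the most abundant. Other members, and Por, Tiparp, Ahrr, Fabp6, Gata4, Pdx1, Onecut2, Slc11a2, Cybrd1, Cela1, Itgam, Acta2, Smoc2, Ccnb2, Mttp and Gm9705, were chosen after their values were seen. The members and lists were chosen with earlier results of these data known. Same-numbered libraries did not deviate together throughout (r = 0.0116, 0.263 and 0.376), so the numbers were not taken as pairs. Positions are from mm9 (GENCODE release M1) and promoter sequences from RefSeq. The alternatives were other pseudocounts, filters, scalings and thresholds, limma without trend, a replicate block, the Y-linked covariate, only libraries with Y-linked transcripts, and each library left out.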

Additional observations from a re-analysis of the deposited data

How the results depend on the processing

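Each count below is of genes called, against 348 lower and 143 higher genes overall and 1 lower and 1 higher P450 gene. With no filter on low values, 528 genes were lower and 277 higher, with 5 and 2 P450 genes. At an adjusted p under 0.05 the counts were 2 and 2 overall and 0 and 0 in the family. With no minimum fold change they were 688 and 456, with 2 P450 genes higher. P450 genes called lower numbered 0 at a pseudocount of 1 (251 lower genes overall), 0 under quantile normalization (324 lower genes overall), and 0 in the libraries with Y-linked transcripts, where 3 were called higher, out of 346 lower and 212 higher genes. With the Y-linked covariate, 2 were lower and 4 higher, out of 413 lower and 173 higher genes. With the replicate block, 2 P450 genes were lower (Cyp2u1 and Cyp39a1) and 4 higher (Cyp27a1, Cyp2b10, Cyp2j9 and Cyp4f16), out of 441 lower and 192 higher genes. The limma unadjusted p-values with the block were 0.00796 for Cyp2u1, 0.0351 for Cyp27a1, 0.0285 for Cyp2b10 and 0.023 for Cyp2j9. With each library left out in turn, lower genes numbered 252 to 533 and higher genes 143 to 214, P450 genes called lower 0 to 2 and higher 1 to 5. The causes of these shifts were not tested.

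Cyp4f16 was called in all 16 alternative fits at the same thresholds. Of the 29 tested members, none was called in a fit that changed its sign. In the libraries with Y-linked transcripts the log2 fold change was -0.118 for Cyp4f14, -0.156 for Cyp2c68, 0.413 for Cyp2c44 and -0.145 for Cyp2c55, and at a pseudocount of 0.01 it was 0.338 for Cyp2c67. With each library left out in turn, log2 fold changes ranged from -0.176 to 0.387 for Cyp2d26, -0.209 to 0.364 for Cyp4f14, -0.0385 to 0.42 for Cyp4v3, -0.427 to 0.0988 for Cyp2c65, -0.328 to 0.101 for Cyp2s1, -0.276 to 0.769 for Cyp4a10, -0.301 to 0.606 for Cyp2c66, -0.685 to 0.389 for Cyp2c44, -2.05 to 0.136 for Cyp2c40, -0.097 to 0.379 for Cyp4x1 and -1.09 to 0.542 for Cyp2c67. FPKM values do not give the number of fragments, so what depth limits at low levels is not known.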
